A study of Mus musculus with 8 samples.

Results

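At E13.5 (E for embryonic day) the mouse trachea is an epithelial tube inside mesenchyme that is forming cartilage on the ventral side and smooth muscle on the dorsal side. The comparison described here sets E13.5 tracheae of the genotype WlsShhCre, called mutants, against E13.5 tracheae labelled control. It asks how transcript levels of the whole organ differ once Wls is deleted from the epithelium. The libraries were taken by their stage and genotype labels, which gave 2 mutants and 2 controls, 4 of the 8 libraries in the study. The other libraries hold the same genotypes at E11.5 and were used to estimate the spread between replicates and to test whether an effect differed between the stages. The names mutant 1, mutant 2, control 1 and control 2 follow the replicate numbers of the labels. Of 37282 gene symbols in the tables, 14901 passed the filter on low counts and were tested.

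The genotype label names a Cre recombinase under the Shh locus, which is active in the epithelium of the airway and foregut. The mesenchyme keeps Wls, and whole tracheae were used, so each level is a sum over epithelium, mesenchyme, vessels and nerves. In such bulk samples fewer cells of a type and less RNA per cell cannot be told apart. The labels do not state which alleles the controls carried, or whether a library was made from 1 trachea or a pool. They also do not say that replicates came from separate embryos, so the p-values measure only the spread between these samples. The sex-linked transcripts given below differed within each pair, most between the 2 mutants.

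Wls is the transport protein that carries lipid-modified Wnt proteins from the Golgi to the cell surface, and a cell without it secretes little Wnt. Secreted Wnts bind Frizzled receptors. With an LRP co-receptor they stabilise beta-catenin, which switches on target genes with TCF and LEF factors, and with ROR receptors they act without beta-catenin. In the tracheal wall Wnts from the epithelium reach the mesenchyme, where cartilage, smooth muscle, vessels and nerves form.

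Total estimated counts were 18.48 and 16.76 M in mutants, against 10.58 and 10.62 M in controls. The E11.5 libraries had 9.9 to 11.9 M. The E13.5 mutants were thus deeper than all other libraries, a difference that coincides with genotype at E13.5. Whether the E13.5 mutants were also prepared apart from the other libraries was not tested. Levels are counts scaled to library size (CPM), with TMM factors for the sizes. Replicates of a group correlated at 0.990 to 0.992 (Pearson's r of log2 CPM, across genes). Xist, transcribed in female cells, had 6.34 and 1224 CPM in mutants, against 2673 and 1841 CPM in controls, and the Y-linked Ddx3y had 106 and 66.8 CPM in mutants, against 19.9 and 48.2 CPM in controls. The libraries thus differ in sex-linked transcripts. Mutant 2 and both controls held both transcripts, while mutant 1 had little Xist. Whether a library mixed embryos of both sexes was not tested. A fit with log2 CPM of Xist as a covariate was run as an alternative. Only mutant 1 had so little Xist, the next lowest library being E11.5 mutant 2 at 526 CPM. That fit therefore draws mostly on mutant 1. It overlaps with the fit without mutant 1 and cannot separate sex from that library. Defining markers of the tracheal tissues were detected in all 4 libraries, with Nkx2-1, the lung and tracheal epithelial factor, at 93.3 and 92.1 CPM in mutants, against 73.5 and 69.1 CPM in controls, and Acta2, smooth muscle actin, at 836 and 976 CPM in mutants, against 412 and 433 CPM in controls. Sftpc, the marker of distal lung epithelium, was among the genes with too few counts to be tested.

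Genes of the intestine and stomach stood apart. Counted over 46 genes that mark these organs, the summed level was 67.2 and 84.9 CPM in the E13.5 mutants, against 234 and 202 CPM in E13.5 controls. The E11.5 libraries had 282 and 281 CPM in mutants, against 239 and 217 CPM in controls. In total 43 genes were called lower with 0 counts in both E13.5 mutants and at least 1 CPM on average in E13.5 controls. All 43 had counts in both E13.5 controls, and 42 or 43 of them in each E11.5 library. Whether these transcripts came with the tissue or from elsewhere was not tested. The counts of calls below are therefore given also without these genes.

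Deletion of Wls from the epithelium went with changes across much of the transcriptome at E13.5. A gene was called when its p from the edgeR quasi-likelihood test, with Benjamini-Hochberg adjustment across every tested gene, was under 0.05. Of the 14901 genes, 1755 were called (11.8%), 889 of them higher in mutants (5.97%) and 866 lower (5.81%). The median log2 fold change was 0.60 among those called higher and -0.64 among those called lower, and -0.0024 over all tested genes. A called difference of at least 2-fold was found for 543 genes (3.64%), 234 higher and 309 lower in mutants. Both mutants lay outside the range of both controls for 8122 genes (54.5%). Without the gut genes 805 genes were called lower, 250 of them at least 2-fold. The genotype effect at E13.5 differed from that at E11.5, tested as an interaction in the same fit, for 497 genes, of which 473 were also called at E13.5. Without control 1 the number of called genes was 934, and with Xist as a covariate it was 1032.

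**Figure D1:**
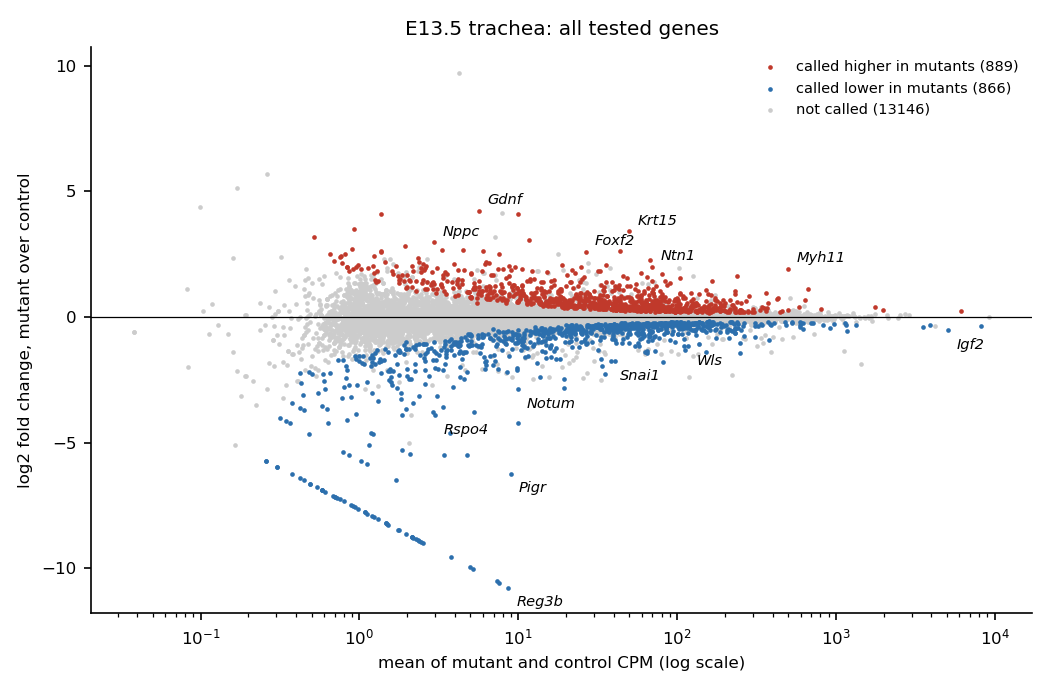
Each point is 1 tested gene, placed by its mean CPM over the groups (log scale) and its log2 fold change, mutant over control, with called genes in red (higher in mutants) and blue (lower). The diagonal string of blue points at the bottom holds genes with 0 counts in both mutants, whose fitted fold change depends on the prior count and is no estimate of size.

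Wls itself, the deleted gene, had 73.9 and 71.8 CPM in mutants, against 168 and 158 CPM in controls (log2 fold change -1.16 ± 0.06 SE, adjusted p = 1.46e-07). Both mutants were below both controls and close to each other. The source of the transcript that remains in mutants was not tested. Porcn, the enzyme that attaches the lipid to Wnt proteins, had 8.22 and 9.19 CPM in mutants, against 8.71 and 8.34 CPM in controls and was not called (adjusted p = 0.946).

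Among the genes of Wnt ligands and their secretion, 11 of 21 were tested, and 3 were called higher and 3 lower in mutants, Wls included. Wnt7b, a ligand of airway epithelium, had 229.8 and 194 CPM in mutants, against 108 and 119.8 CPM in controls (log2 fold change 0.89 ± 0.09 SE, adjusted p = 0.000177). Wnt4 had 31.97 and 34.9 CPM in mutants, against 14.9 and 13.6 CPM in controls (log2 fold change 1.23 ± 0.15 SE, adjusted p = 1e-04). Both mutants were above both controls for Wnt7b and for Wnt4, and both genes are expressed in tracheal epithelium. Wnt2, a ligand of foregut mesenchyme that signals through beta-catenin, had 18.1 and 23.5 CPM in mutants, against 7.12 and 8.62 CPM in controls (log2 fold change 1.40 ± 0.18 SE, adjusted p = 0.000225). Wnt5a, the mesenchymal ligand that acts through ROR receptors, was lower at 122 and 116 CPM in mutants, against 165 and 174 CPM in controls (log2 fold change -0.51 ± 0.07 SE, adjusted p = 0.000244). Wnt5b, its close relative, was also called lower with a log2 fold change of -0.41 ± 0.12 SE (adjusted p = 0.046), a call lost without mutant 1 (adjusted p = 0.322), without control 1 (adjusted p = 0.205), without control 2 (adjusted p = 0.14) and with Xist as a covariate (adjusted p = 0.46). Compared per length of gene model, Wnt7b was the most abundant tested ligand in mutants and Wnt5a in controls. Wnt7b had 52.4 and 44.8 RPKM in mutants, against 24.8 and 27.2 RPKM in controls, and Wnt5a had 28.1 and 27.1 RPKM in mutants, against 38.2 and 40.1 RPKM in controls.

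Of 19 tested receptors and co-receptors, 1 rose and 4 fell. Those called lower numbered 2 without control 1. Lgr5, which binds R-spondins and is itself a Wnt target, had 26.97 and 22.9 CPM in mutants, against 12.1 and 11.1 CPM in controls (log2 fold change 1.11 ± 0.15 SE, adjusted p = 0.000327). Fzd1, a Frizzled receptor, had 120.1 and 123 CPM in mutants, against 176 and 175 CPM in controls (log2 fold change -0.53 ± 0.06 SE, adjusted p = 4.07e-05). Ror1, a receptor for Wnt5a, had 29.8 and 43.7 CPM in mutants, against 74.8 and 77.3 CPM in controls (log2 fold change -1.05 ± 0.18 SE, adjusted p = 0.0142). The call on Ror1 was lost without control 1 (adjusted p = 0.0871) and without control 2 (adjusted p = 0.0871). Its relative Ror2 was not called, with 43.1 and 42.95 CPM in mutants, against 47.7 and 49.7 CPM in controls (adjusted p = 0.125).

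Among secreted regulators of Wnt, 2 of 20 tested genes were called higher, 6 lower and 12 neither. Genes called higher numbered 1 without control 1. Notum, a secreted esterase that inactivates Wnt by removing its lipid, had 2.203 and 2.63 CPM in mutants, against 17.2 and 17.99 CPM in controls (log2 fold change -2.86 ± 0.20 SE, adjusted p = 1.13e-06). Rspo4, an R-spondin that strengthens Wnt signals, had 0.269 and 0.468 CPM in mutants, against 5.15 and 6.09 CPM in controls (log2 fold change -3.91 ± 0.41 SE, adjusted p = 3.6e-05). The mutant libraries of both genes were far below the controls, with no overlap. Gpc3, a glypican of the cell surface, had 781 and 792 CPM in mutants, against 1073 and 1033 CPM in controls (log2 fold change -0.42 ± 0.05 SE, adjusted p = 0.000222). Kremen1, a receptor for the inhibitor Dkk1, was higher with 71.2 and 67.5 CPM in mutants, against 43.4 and 45.1 CPM in controls (log2 fold change 0.65 ± 0.09 SE, adjusted p = 0.000268). Wif1, a secreted Wnt inhibitor, had 17.6 and 9.48 CPM in mutants, against 52.2 and 40.1 CPM in controls. Its groups did not overlap, as for 54.5% of all tested genes, but with a log2 fold change of -1.76 ± 0.86 SE it was not called (adjusted p = 0.329).

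Inside the cell, 3 of 17 tested feedback and target genes of beta-catenin were called higher and 7 lower. The number called higher was 1 without control 1 and 1 without control 2. Ccnd1, cyclin D1, had 224 and 228 CPM in mutants, against 405 and 380.2 CPM in controls (log2 fold change -0.80 ± 0.06 SE, adjusted p = 2.19e-06). Myc, a growth regulator, had 27.6 and 29.4 CPM in mutants, against 52.1 and 48.9 CPM in controls (log2 fold change -0.83 ± 0.08 SE, adjusted p = 2.04e-05). Both partners of beta-catenin in this list that were called, Lef1 and Tcf7, were lower: Lef1 had 4.62 and 4.799 CPM in mutants, against 8.8 and 8.25 CPM in controls (log2 fold change -0.86 ± 0.14 SE, adjusted p = 0.00121) and Tcf7 had 6.93 and 8.48 CPM in mutants, against 15.1 and 19.02 CPM in controls (log2 fold change -1.15 ± 0.15 SE, adjusted p = 0.000191). Axin2, the most widely used reporter of the pathway, had 18.4 and 18.96 CPM in mutants, against 27.6 and 23.9 CPM in controls (log2 fold change -0.46 ± 0.11 SE, adjusted p = 0.0109). That call was lost without mutant 1 (adjusted p = 0.057), without control 1 (adjusted p = 0.148) and with Xist as a covariate (adjusted p = 0.108). Going the other way, Rnf43, a ubiquitin ligase that removes Frizzled from the surface, had 36.6 and 29.96 CPM in mutants, against 19.9 and 18.9 CPM in controls (log2 fold change 0.78 ± 0.11 SE, adjusted p = 0.000455). The other genes called higher were Sp5, with a log2 fold change of 1.43, and Tnfrsf19, with 1.02. The call on Sp5 was lost without mutant 1 (adjusted p = 0.0763), without mutant 2 (adjusted p = 0.0945), without control 1 (adjusted p = 0.151), without control 2 (adjusted p = 0.171) and with Xist as a covariate (adjusted p = 0.122), and that on Tnfrsf19 without control 1 (adjusted p = 0.0816) and without control 2 (adjusted p = 0.0621).

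Promoters were searched for the 7-base core of the TCF and LEF recognition sequence, CTTTGNN with A or T at both N, on both strands, in the 250 bases before and 50 after each gene start in RefSeq (GRCm38.p6). Of the Wnt-list genes that were called and had a promoter in the table, 4 of 18 held a match, and of the tested Wnt-list genes 8 of 44. Among all tested genes with a promoter the share was 13.9%, among those called lower 17.1% and among those called higher 14.2%. A match describes the letters only.

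Of 51 tested transcription factors of the mesenchyme, 15 were called lower, 7 higher and 29 neither. Those called higher numbered 4 without control 2. All of the T-box genes Tbx2, Tbx3, Tbx4 and Tbx5, which pattern the mesenchyme of trachea and lung, fell. Tbx4 had 15.8 and 21.2 CPM in mutants, against 56.4 and 68.5 CPM in controls (log2 fold change -1.75 ± 0.14 SE, adjusted p = 1e-04). Tbx5 had 33.3 and 38.9 CPM in mutants, against 88.1 and 98.6 CPM in controls (log2 fold change -1.37 ± 0.08 SE, adjusted p = 2.76e-07), Tbx2 had 81.4 and 88.1 CPM in mutants, against 221 and 222 CPM in controls (log2 fold change -1.39 ± 0.06 SE, adjusted p = 2.26e-08), and Tbx3 had 31.2 and 39.03 CPM in mutants, against 90.2 and 98.6 CPM in controls (log2 fold change -1.43 ± 0.11 SE, adjusted p = 1.38e-05). For all 4 genes the mutants were below the controls by more than the distance between replicates.

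Snai1, a zinc-finger repressor of epithelial genes, had 16.2 and 18.9 CPM in mutants, against 60.4 and 59.1 CPM in controls (log2 fold change -1.77 ± 0.10 SE, adjusted p = 2.12e-07). Msx2, a homeobox target of BMP signalling, had 0.806 and 1.17 CPM in mutants, against 6.27 and 7.22 CPM in controls (log2 fold change -2.77 ± 0.30 SE, adjusted p = 4.25e-05). Alx4, an aristaless-like homeobox gene, and Nr2f1, an orphan nuclear receptor, fell by 1.51 and 1.02 on the log2 scale, with adjusted p of 0.00348 and 3.29e-05. Gata5, a zinc-finger factor of heart and gut, had 2.47 and 2.22 CPM in mutants, against 10.1 and 9.84 CPM in controls (log2 fold change -2.08 ± 0.21 SE, adjusted p = 3.68e-05). Tbx5 and Gata5 are also expressed in heart, and the summed level of 17 cardiac muscle genes was 397 and 139 CPM in mutants, against 1279 and 563 CPM in controls. Both mutants were below both controls in that sum too, and its part in these differences was not tested.

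Foxf2, a forkhead factor of foregut mesenchyme, showed the largest increase of the list, with 46.5 and 45.4 CPM in mutants, against 6.93 and 8.15 CPM in controls (log2 fold change 2.60 ± 0.13 SE, adjusted p = 1.46e-07). The mutant libraries differed from each other by little beside their distance from the controls. Its relative Foxf1a had 94.2 and 118 CPM in mutants, against 48.1 and 54.3 CPM in controls (log2 fold change 1.05 ± 0.17 SE, adjusted p = 0.0125), a call lost without control 1 (adjusted p = 0.11) and without control 2 (adjusted p = 0.0656). Nkx6-1, a homeobox factor, had 35.5 and 43.1 CPM in mutants, against 11.1 and 14.7 CPM in controls (log2 fold change 1.60 ± 0.17 SE, adjusted p = 0.000421). Eya1, a co-activator of homeobox factors, had 65.4 and 47.8 CPM in mutants, against 22.4 and 20.99 CPM in controls (log2 fold change 1.38 ± 0.14 SE, adjusted p = 9.83e-05), and Foxp1 had 230.4 and 249 CPM in mutants, against 145 and 153 CPM in controls (log2 fold change 0.69 ± 0.06 SE, adjusted p = 5.16e-06).

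Hox genes give cells their position along the body axis. Of 16 tested, 3 were called lower and 0 higher in the edgeR fit; 9 had an unadjusted p under 0.05, and DESeq2 called 2 lower and 0 higher. Hoxa5, which mouse embryos need for normal tracheal cartilage, had 31.2 and 38.1 CPM in mutants, against 90.7 and 91 CPM in controls (log2 fold change -1.39 ± 0.11 SE, adjusted p = 1.09e-05). Hoxa4, its neighbour, had 38.2 and 40.9 CPM in mutants, against 62.6 and 56.4 CPM in controls (log2 fold change -0.59 ± 0.08 SE, adjusted p = 0.000277). Hoxb5 had 8.81 and 8.19 CPM in mutants, against 9.92 and 12.2 CPM in controls and was not called (adjusted p = 0.125).

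**Figure D2:**
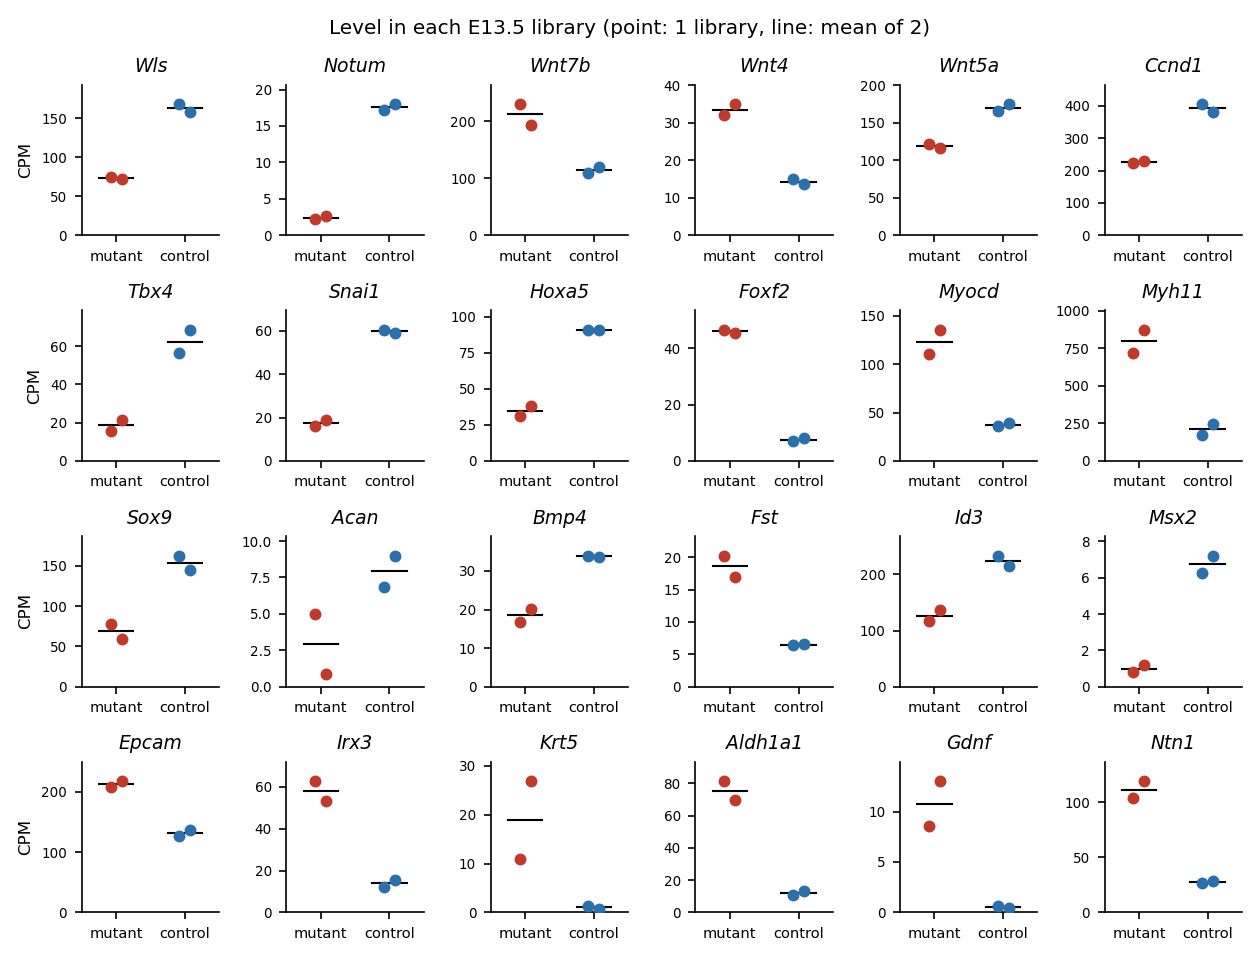
Level in CPM of 24 genes named in the text, 1 panel per gene, with mutants at the left and controls at the right, each point 1 library and each line the mean of 2. In every panel both mutants lie on the same side of both controls; the mutants of Acan (5.0 and 0.878 CPM) and Krt5 (10.9 and 26.8 CPM) are the farthest apart relative to their mean.

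Many smooth muscle genes rose. Of 37 tested, 19 were called higher in mutants, 0 lower and 18 neither, and the median log2 fold change of the list was 0.423. The number called higher lay between 15 and 22 over the 15 alternative analyses. Their summed level was 7757 and 8623 CPM in mutants, against 5214 and 5551 CPM in controls. Genes with little or no difference were also present, such as Des, desmin, at 86.3 and 72.1 CPM in mutants, against 77.6 and 67.01 CPM in controls. The 18 not called also held Tagln, transgelin, at 180.5 and 210.4 CPM in mutants, against 122 and 133 CPM in controls. Both mutants were above both controls for Tagln. It was called when the 4 E13.5 libraries were fitted alone with edgeR (log2 fold change 0.62, adjusted p = 0.00497).

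Myocd, the co-activator that turns on contractile genes with SRF, had 110.5 and 135 CPM in mutants, against 35.6 and 39.6 CPM in controls (log2 fold change 1.71 ± 0.16 SE, adjusted p = 0.000604). Myh11, the smooth muscle myosin heavy chain, had 721 and 873 CPM in mutants, against 175 and 245 CPM in controls (log2 fold change 1.93 ± 0.21 SE, adjusted p = 0.00672). Each mutant had more than 2 times the higher control for both genes. Myh11 was not called when the 4 E13.5 libraries were fitted alone (adjusted p = 0.0691). Acta2 had a log2 fold change of 1.10 ± 0.21 SE (adjusted p = 0.0352), which was lost without mutant 1 (adjusted p = 0.091), without mutant 2 (adjusted p = 0.112), without control 1 (adjusted p = 0.179), without control 2 (adjusted p = 0.138) and with Xist as a covariate (adjusted p = 0.0794). Lmod1, leiomodin, which starts actin filaments, had 19.98 and 27.1 CPM in mutants, against 7.68 and 9.75 CPM in controls (log2 fold change 1.43 ± 0.21 SE, adjusted p = 0.000819). Mrvi1, a substrate of cGMP kinase in smooth muscle, had 48.3 and 55.6 CPM in mutants, against 18.6 and 20.8 CPM in controls (log2 fold change 1.40 ± 0.13 SE, adjusted p = 1.7e-05), and Synpo2, an actin-binding protein, had 87.5 and 104 CPM in mutants, against 43.8 and 45.1 CPM in controls (log2 fold change 1.11 ± 0.13 SE, adjusted p = 0.00074).

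Srf, the factor that binds CArG boxes in contractile genes, rose less, with 87.6 and 89.3 CPM in mutants, against 65.9 and 68.5 CPM in controls (log2 fold change 0.40 ± 0.07 SE, adjusted p = 0.00222). Its own promoter holds CArG boxes, and it is shown with that of Myl9, a myosin light chain that had 319 and 369 CPM in mutants, against 280.5 and 236 CPM in controls and was not called (adjusted p = 0.122). Each sequence covers the 200 bases before the gene start in RefSeq (GRCm38.p6), read 5′ to 3′ on the gene's strand, with CArG boxes in capitals. The Srf sequence lies at chr17:46556163-46556362 on the minus strand and the Myl9 sequence at chr2:156775264-156775463 on the plus strand.
Srf: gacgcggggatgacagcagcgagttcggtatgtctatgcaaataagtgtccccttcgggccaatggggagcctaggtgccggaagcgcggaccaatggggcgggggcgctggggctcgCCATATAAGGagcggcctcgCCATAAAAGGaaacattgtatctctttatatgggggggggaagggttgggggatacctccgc
Myl9: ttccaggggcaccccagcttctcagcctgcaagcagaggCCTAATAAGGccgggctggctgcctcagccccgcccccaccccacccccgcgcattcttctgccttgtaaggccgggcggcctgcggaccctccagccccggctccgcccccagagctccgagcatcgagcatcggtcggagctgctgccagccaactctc
The Srf sequence has 2 CArG boxes, which begin 82 and 62 bases before the start, and the Myl9 sequence has 1, which begins 161 bases before it. In the 300-base promoters of the table, which reach 50 bases past the start, a CArG box was found in 1.65% of tested genes, in 3.06% of those called higher and in 2.17% of those called lower. Of the smooth muscle genes with a promoter, 4 of 30 held one, Srf, Myl9, Fhl1 and Ldb3, of which only Srf was called.

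Genes of receptors, channels and gap junctions, some of which act in muscle tone, changed in both directions. Which cells of the trachea these transcripts came from was not tested. Chrm2, a muscarinic acetylcholine receptor, had 6.45 and 8.95 CPM in mutants, against 1.31 and 1.12 CPM in controls (log2 fold change 2.65 ± 0.32 SE, adjusted p = 0.000239). Kcnj8, a subunit of ATP-sensitive potassium channels, had 19.98 and 29.9 CPM in mutants, against 7.68 and 10.03 CPM in controls (log2 fold change 1.49 ± 0.21 SE, adjusted p = 0.00117), and Kcnd3, a voltage-gated potassium channel, had 30.1 and 38.6 CPM in mutants, against 8.99 and 9.84 CPM in controls (log2 fold change 1.87 ± 0.17 SE, adjusted p = 1.02e-05). Ano1, a calcium-activated chloride channel, had 61.9 and 62.3 CPM in mutants, against 26.3 and 31.9 CPM in controls (log2 fold change 1.09 ± 0.10 SE, adjusted p = 8.06e-06). All of these were higher in both mutants than in either control. Cacna1c, the L-type calcium channel, rose by 0.57 ± 0.09 SE on the log2 scale (adjusted p = 0.000968). Kcnk3, a background potassium channel, was lower with 8.43 and 11.7 CPM in mutants, against 20.5 and 18.6 CPM in controls (log2 fold change -0.96 ± 0.16 SE, adjusted p = 0.00129). Gja1, the gap junction protein connexin 43, had 100.1 and 101 CPM in mutants, against 132 and 129.9 CPM in controls (log2 fold change -0.38 ± 0.06 SE, adjusted p = 0.000755). Over the whole list of 30 tested channels and gap junction genes, 5 were called higher and 5 lower. Genes called lower numbered 3 without mutant 1, 3 without control 1, 3 without control 2 and 3 with Xist as a covariate.

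Skeletal muscle genes varied between replicates. Their summed level was 1627 and 617 CPM in mutants, against 1207 and 727 CPM in controls, so the groups overlapped in the sum. Gene by gene, 20 of 24 did not overlap between groups, as for 54.5% of all tested genes, and 19 had a log2 fold change above 0. An unadjusted edgeR p under 0.05 was found for 15, against 24% of all tested genes. Of 24 tested, 2 were called higher (8.3%, against 11.8% of all tested genes called), while the median log2 fold change was 1.49. Myog, myogenin, had 66.3 and 28.7 CPM in mutants, against 13.2 and 15.9 CPM in controls, with mutant 1 above the other libraries, and was not called (adjusted p = 0.195). The number of skeletal muscle genes called higher was 5 without mutant 1 and 17 without mutant 2, and without control 1 or control 2 it was 0. Their part in the smooth muscle result was not tested.

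Cartilage genes were lower in mutants, with 7 of 20 tested genes called lower and 0 higher. The median log2 fold change was -0.82, and 19 of the 20 were below 0. Sox9, the factor that starts cartilage formation, had 77.8 and 59.7 CPM in mutants, against 163 and 145 CPM in controls (log2 fold change -1.16 ± 0.15 SE, adjusted p = 0.0039). Sox5, its partner on cartilage genes, had 34.3 and 31.2 CPM in mutants, against 46.2 and 49.2 CPM in controls (log2 fold change -0.54 ± 0.09 SE, adjusted p = 0.000882). Wwp2, a ubiquitin ligase found with Sox9 in cartilage, had 159.5 and 108 CPM in mutants, against 366 and 366 CPM in controls (log2 fold change -1.45 ± 0.18 SE, adjusted p = 0.00857). The call on Wwp2 was lost without control 1 (adjusted p = 0.0686) and without control 2 (adjusted p = 0.0567).

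The matrix genes of cartilage differed between the mutants. Col2a1, the main collagen of cartilage, had 342 and 193 CPM in mutants, against 448 and 443 CPM in controls and was not called (log2 fold change -0.74 ± 0.30 SE, adjusted p = 0.242). Acan, the proteoglycan aggrecan, had 4.996 and 0.878 CPM in mutants, against 6.83 and 8.997 CPM in controls (log2 fold change -1.41 ± 0.65 SE, adjusted p = 0.269), with mutant 1 near the controls and mutant 2 far below them. Col2a1 passed the threshold without mutant 1 (adjusted p = 2.04e-06), without mutant 2 (adjusted p = 0.0137) and with Xist as a covariate (adjusted p = 0.000504), and Acan without mutant 1 (adjusted p = 8.96e-05) and with Xist as a covariate (adjusted p = 7.96e-05). The number of cartilage genes called lower was 14 without mutant 1, 10 without mutant 2, 2 without control 1 and 3 without control 2. With Xist as a covariate it was 12.

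**Figure D3:**
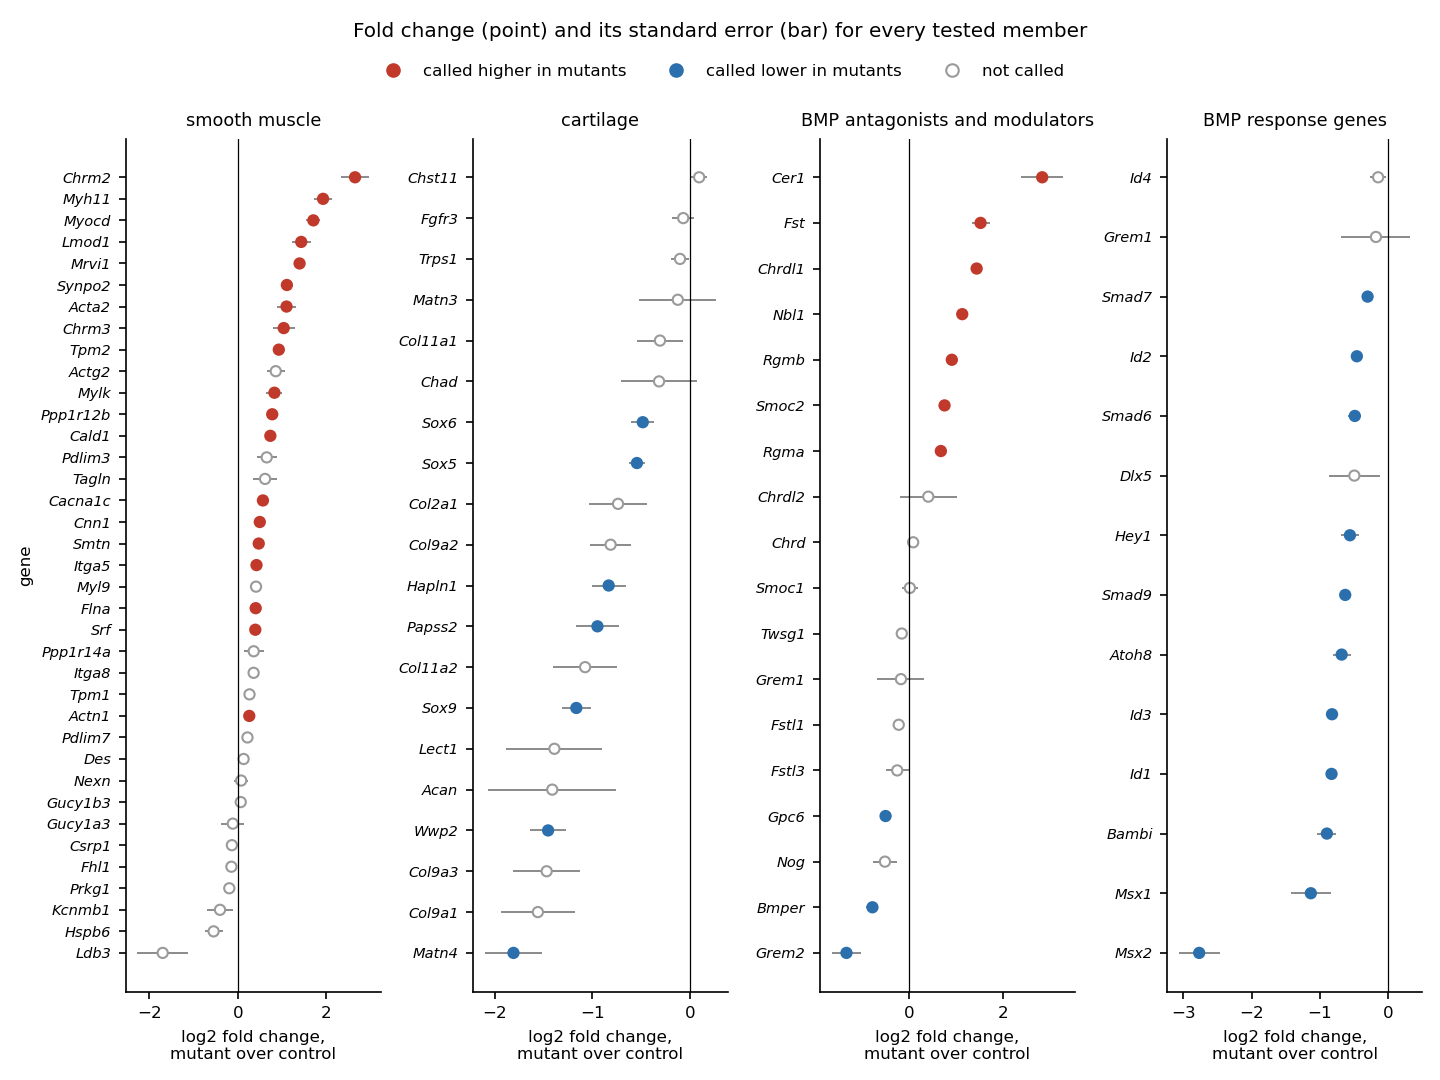
Log2 fold change (mutant over control, point) and its standard error (bar) of every tested gene in 4 lists, with filled red points for genes called higher in mutants, filled blue points for genes called lower, and open points for genes not called. Called smooth muscle genes all lie right of 0, called cartilage and BMP response genes all lie left of it, and the BMP antagonists fall on both sides.

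Matrix genes outside cartilage moved in both directions. Of 31 tested collagen genes, 7 were called lower and 2 higher, and Col23a1, a transmembrane collagen, had 69.1 and 83.6 CPM in mutants, against 114 and 112 CPM in controls (log2 fold change -0.57 ± 0.08 SE, adjusted p = 0.00041). The number called higher was 0 without control 1, and those called lower numbered 1 without control 2 and 4 with Xist as a covariate. Of 40 genes of elastic fibres, proteoglycans and matricellular proteins, 8 were called lower and 7 higher. Genes called higher numbered 3 without mutant 2 and 3 without control 2, and the number called lower was 5 without control 1 and 5 without control 2. Fmod, fibromodulin, a proteoglycan that binds collagen fibrils, had 75.5 and 77.8 CPM in mutants, against 41.1 and 32.99 CPM in controls (log2 fold change 1.05 ± 0.12 SE, adjusted p = 0.000362), and Tnn, tenascin-N, had 12.9 and 13.8 CPM in mutants, against 4.68 and 6.47 CPM in controls (log2 fold change 1.26 ± 0.23 SE, adjusted p = 0.00242). Eln, elastin, had 629 and 486 CPM in mutants, against 896 and 888 CPM in controls. It was not called (adjusted p = 0.295) although both mutants were below both controls. Groups did not overlap for 54.5% of all tested genes.

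Of 34 genes for basement membrane and integrins, 6 were called higher and 5 lower. Those called lower numbered 3 with Xist as a covariate. Frem2, a basement membrane protein made by epithelium, had 462 and 490.0 CPM in mutants, against 240.5 and 251 CPM in controls (log2 fold change 0.95 ± 0.06 SE, adjusted p = 8.08e-07). Lama4, a laminin chain of vessels and muscle, had 143 and 152 CPM in mutants, against 219 and 229 CPM in controls (log2 fold change -0.61 ± 0.08 SE, adjusted p = 0.000417), and Nid2, nidogen 2, had 166 and 169 CPM in mutants, against 247 and 238 CPM in controls (log2 fold change -0.54 ± 0.08 SE, adjusted p = 0.000557). Among 42 tested secreted proteases and inhibitors 4 rose and 2 fell. Genes called lower numbered 1 without mutant 1, 4 without mutant 2 and 0 without control 1. Htra3, a secreted serine protease that limits TGF-beta signals, had 30.9 and 40.03 CPM in mutants, against 13.8 and 13.03 CPM in controls (log2 fold change 1.40 ± 0.16 SE, adjusted p = 1e-04), and Timp3, an inhibitor of matrix metalloproteinases, had 254 and 273 CPM in mutants, against 162 and 171 CPM in controls (log2 fold change 0.66 ± 0.07 SE, adjusted p = 3.22e-05). These shares, 14.3% for the proteases, compare with 11.8% of all tested genes.

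In BMP signalling, several ligands fell, several antagonists rose and most of the genes that BMP switches on fell. Among 16 ligands of the BMP and TGF-beta family, 5 were called lower and 1 higher. Bmp4, made in ventral tracheal mesenchyme, had 16.9 and 20.2 CPM in mutants, against 33.98 and 33.5 CPM in controls (log2 fold change -0.87 ± 0.10 SE, adjusted p = 8.58e-05). Gdf5, a ligand of joint and cartilage formation, had 7.04 and 7.61 CPM in mutants, against 21.8 and 23.8 CPM in controls (log2 fold change -1.64 ± 0.18 SE, adjusted p = 4.08e-05). Gdf6 had 13.2 and 12.9 CPM in mutants, against 24.5 and 28.1 CPM in controls (log2 fold change -1.01 ± 0.14 SE, adjusted p = 0.000354), and Bmp6 had 1.18 and 2.34 CPM in mutants, against 6.65 and 7.12 CPM in controls (log2 fold change -1.97 ± 0.29 SE, adjusted p = 0.000487).

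Of 18 antagonists and modulators 7 were called higher and 3 lower. Fst, follistatin, which binds activin and BMP, had 20.2 and 16.97 CPM in mutants, against 6.37 and 6.56 CPM in controls (log2 fold change 1.53 ± 0.19 SE, adjusted p = 0.000176). Chrdl1, a chordin-like antagonist, had 127 and 119 CPM in mutants, against 42.8 and 47.7 CPM in controls (log2 fold change 1.44 ± 0.08 SE, adjusted p = 1.46e-07), and Nbl1, a member of the DAN family, had 76.3 and 72.04 CPM in mutants, against 32.5 and 35.1 CPM in controls (log2 fold change 1.13 ± 0.08 SE, adjusted p = 1.36e-06). For all 3 the lowest mutant was above the highest control. Cer1, Cerberus, a secreted antagonist of BMP, Nodal and Wnt, had 3.98 and 2.87 CPM in mutants, against 0.655 and 0.281 CPM in controls (log2 fold change 2.85 ± 0.45 SE, adjusted p = 0.000949). Rgmb, a BMP co-receptor, and Smoc2, a secreted modulator, rose by 0.91 ± 0.08 SE and 0.75 ± 0.06 SE on the log2 scale. Bmper, a BMP-binding protein of vessels, fell, with 38.9 and 32.2 CPM in mutants, against 58.4 and 64.8 CPM in controls (log2 fold change -0.79 ± 0.13 SE, adjusted p = 0.00296). Nog, noggin, had 7.74 and 4.33 CPM in mutants, against 7.02 and 10.4 CPM in controls and was not called (adjusted p = 0.261). It passed the threshold without mutant 1 (adjusted p = 0.0294) and with Xist as a covariate (adjusted p = 0.0239).

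Of 14 genes that respond to BMP, 11 were called lower and 0 higher, with a median log2 fold change of -0.60. Id1, Id2 and Id3 encode inhibitors of basic helix-loop-helix factors and are direct targets of BMP-activated SMADs. Id1 had 39.97 and 46.6 CPM in mutants, against 77.2 and 76.6 CPM in controls (log2 fold change -0.83 ± 0.08 SE, adjusted p = 2.87e-05), Id3 had 117 and 136 CPM in mutants, against 234 and 215 CPM in controls (log2 fold change -0.82 ± 0.07 SE, adjusted p = 7.28e-06) and Id2 had 113 and 125 CPM in mutants, against 162 and 165 CPM in controls (log2 fold change -0.46 ± 0.06 SE, adjusted p = 0.000362). Smad9, a receptor-activated SMAD, had 35.7 and 34.9 CPM in mutants, against 55.5 and 53.7 CPM in controls (log2 fold change -0.63 ± 0.08 SE, adjusted p = 0.000189). Bambi, a decoy receptor, had 26.3 and 30.96 CPM in mutants, against 60.2 and 46.4 CPM in controls (log2 fold change -0.90 ± 0.14 SE, adjusted p = 0.00364). Counts called lower ranged from 7 (without control 1) to 11 over the alternatives. Endothelial cells also express Id genes, and their marker list was lower too, as given further on; its part was not tested.

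Most surface and junction genes of the epithelium rose. Of 35 surface and junction genes, 22 were called higher and 1 lower, and the median log2 fold change was 0.626. Their summed level was 2247 and 2314 CPM in mutants, against 1572 and 1566 CPM in controls. Epcam, an epithelial adhesion protein, had 209 and 218 CPM in mutants, against 127 and 137 CPM in controls (log2 fold change 0.69 ± 0.07 SE, adjusted p = 3.2e-05). Cldn6, a tight junction claudin, had 158 and 153 CPM in mutants, against 90.99 and 99.2 CPM in controls (log2 fold change 0.71 ± 0.08 SE, adjusted p = 6.32e-05). Esrp2, an epithelial splicing regulator, had 57.5 and 56.1 CPM in mutants, against 30.1 and 33.5 CPM in controls (log2 fold change 0.84 ± 0.08 SE, adjusted p = 2.69e-05), and Spint1, an inhibitor of membrane proteases, had 37.7 and 34.9 CPM in mutants, against 17.9 and 20.6 CPM in controls (log2 fold change 0.92 ± 0.13 SE, adjusted p = 0.000327). Cdh1, E-cadherin, had 192 and 191 CPM in mutants, against 132 and 137 CPM in controls (log2 fold change 0.51 ± 0.09 SE, adjusted p = 0.00466), a call lost without control 1 (adjusted p = 0.0525). Krt8, a keratin of simple epithelium, had 154 and 171 CPM in mutants, against 131 and 135 CPM in controls and was not called (adjusted p = 0.337).

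Of 25 epithelial transcription factors 11 were called higher and 2 lower. The number called higher was 7 without control 2. Sox2, which sets the identity of proximal airway and oesophagus, had 135 and 138 CPM in mutants, against 67.5 and 78.3 CPM in controls (log2 fold change 0.90 ± 0.11 SE, adjusted p = 0.000623). Foxa1 and Foxa2, pioneer factors of the endoderm, rose by 0.83 ± 0.11 SE and 0.83 ± 0.09 SE on the log2 scale, and Grhl2, a regulator of epithelial junctions, by 0.84 ± 0.10 SE. Nkx2-1 rose by 0.38 ± 0.09 SE (adjusted p = 0.0133), and its call was lost without mutant 1 (adjusted p = 0.0551), without control 1 (adjusted p = 0.0579), without control 2 (adjusted p = 0.114) and with Xist as a covariate (adjusted p = 0.105). Wnt7b and Wnt4, ligands of this epithelium, had log2 fold changes of 0.89 and 1.23 in the same libraries.

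The largest increases among the called epithelial factors were in Iroquois homeobox genes, which pattern the airway. Irx3 had 62.5 and 53.2 CPM in mutants, against 12.2 and 15.7 CPM in controls (log2 fold change 2.06 ± 0.13 SE, adjusted p = 3.57e-06), Irx5 had 32.4 and 28.97 CPM in mutants, against 8.99 and 10.2 CPM in controls (log2 fold change 1.68 ± 0.12 SE, adjusted p = 1.06e-06) and Irx2 had 58.8 and 42.6 CPM in mutants, against 13.7 and 15 CPM in controls (log2 fold change 1.82 ± 0.21 SE, adjusted p = 0.00241). For all 3 genes each mutant was more than 2 times the higher control. Irx1 had 46.1 and 32.95 CPM in mutants, against 10.7 and 9.37 CPM in controls (log2 fold change 1.98 ± 0.24 SE, adjusted p = 0.00349), a call lost without control 2 (adjusted p = 0.051).

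Basal cells, the stem cells of the tracheal epithelium, are marked by Trp63 and Krt5. Krt5 had 10.9 and 26.8 CPM in mutants, against 1.404 and 0.750 CPM in controls (log2 fold change 4.11 ± 0.57 SE, adjusted p = 0.00553). Krt15, another keratin of basal cells, had 60.01 and 124 CPM in mutants, against 9.17 and 7.87 CPM in controls (log2 fold change 3.43 ± 0.47 SE, adjusted p = 0.0179). Mutant 2 was above mutant 1 for both genes, and both mutants were above both controls. The call on Krt5 was lost without control 1 (adjusted p = 0.0539) and without control 2 (adjusted p = 0.0647), and that on Krt15 without control 1 (adjusted p = 0.135) and without control 2 (adjusted p = 0.121). Trim29, a gene of squamous and basal epithelium, had 7.04 and 13.6 CPM in mutants, against 1.97 and 1.31 CPM in controls (log2 fold change 2.65 ± 0.39 SE, adjusted p = 0.00142). Trp63, their master factor, had 27.02 and 34.8 CPM in mutants, against 25.1 and 19.6 CPM in controls and was not called (adjusted p = 0.101), but passed without mutant 1 (adjusted p = 0.0322) and with Xist as a covariate (adjusted p = 0.0403). Of 16 tested genes of the basal programme, 5 were called higher and 0 lower. Without control 1, and likewise without control 2, the number called was 0.

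Among 18 tested genes of differentiated airway cells, 4 were called higher and 1 lower. Cftr, the chloride channel of airway epithelium, had 90.8 and 80.99 CPM in mutants, against 41 and 53.05 CPM in controls (log2 fold change 0.87 ± 0.14 SE, adjusted p = 0.00486). Ccno, a gene of the pathway to multiciliated cells, had 32.7 and 32.8 CPM in mutants, against 16.4 and 17.1 CPM in controls (log2 fold change 0.97 ± 0.12 SE, adjusted p = 0.000191). Cldn10, a claudin that forms ion pores, had 20.3 and 21.2 CPM in mutants, against 1.404 and 3.56 CPM in controls (log2 fold change 3.06 ± 0.30 SE, adjusted p = 6.73e-05). Both mutants were above both controls in each case. Agr2, a protein-folding enzyme of mucous cells that is abundant in gut, was lower with 0.107 and 0.0585 CPM in mutants, against 5.24 and 2.905 CPM in controls (log2 fold change -5.44 ± 0.52 SE, adjusted p = 1.57e-05). The intestinal list given above was lower in the same libraries, and its part was not tested.

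**Figure D4:**
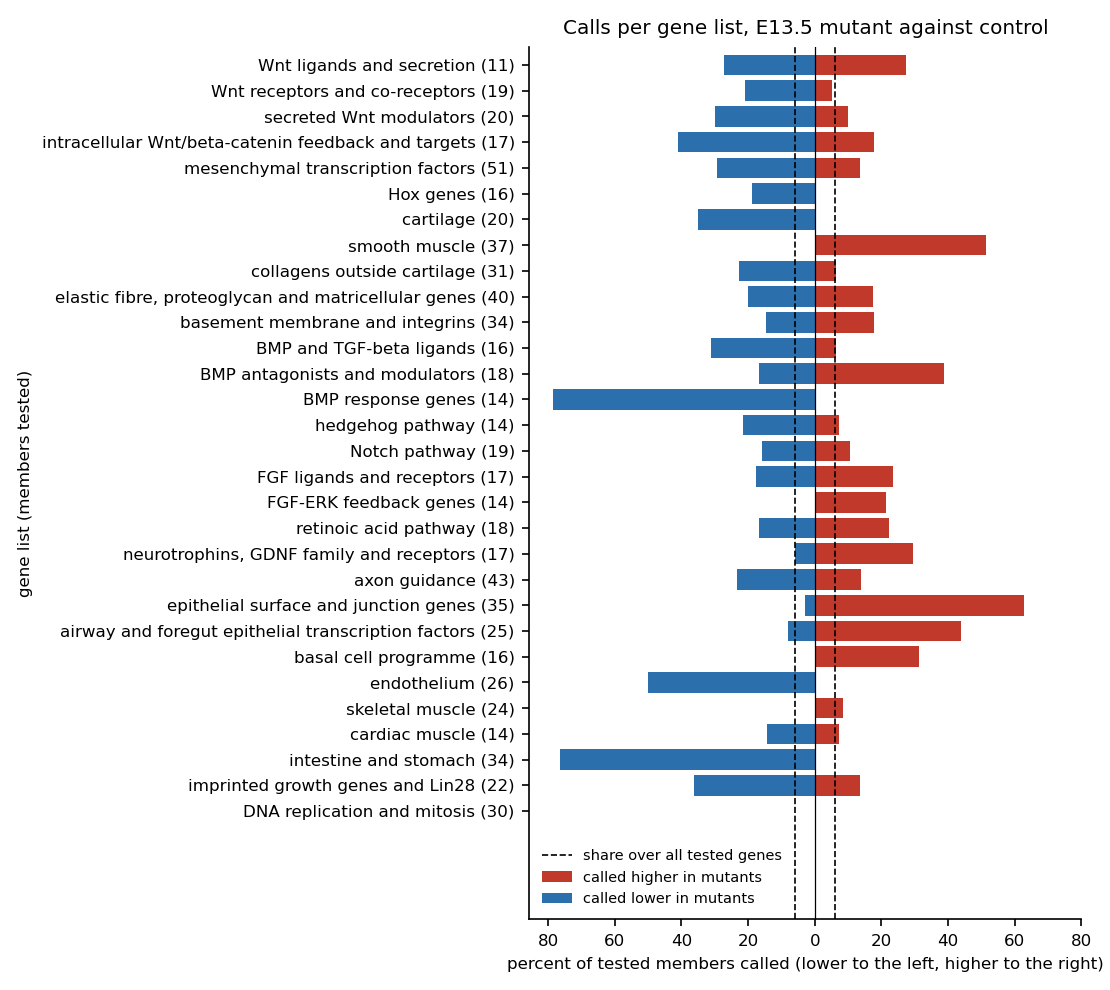
Percent of the tested members of 30 gene lists that were called higher in mutants (red, to the right) or lower (blue, to the left), with the number of tested members in brackets. Dashed lines mark the shares over all tested genes, 5.97% higher and 5.81% lower; smooth muscle and epithelial junction genes extend farthest to the right, and BMP response genes and the intestine list farthest to the left.

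Signals to nerves differed, with a large increase of Gdnf. Gdnf, the ligand that attracts enteric and other neurons through the receptors Gfra1 and Ret, had 8.54 and 12.99 CPM in mutants, against 0.655 and 0.469 CPM in controls (log2 fold change 4.23 ± 0.34 SE, adjusted p = 4.04e-06). Its transcript was scarce in controls and well above them in both mutants. Gfra1 had 201 and 208 CPM in mutants, against 89.8 and 106 CPM in controls (log2 fold change 1.07 ± 0.07 SE, adjusted p = 7.41e-07). Ret had 49.4 and 57.5 CPM in mutants, against 37.6 and 25.6 CPM in controls (log2 fold change 0.76 ± 0.18 SE, adjusted p = 0.0406), a call lost without mutant 1 (adjusted p = 0.0548), without mutant 2 (adjusted p = 0.112) and with Xist as a covariate (adjusted p = 0.0528). Ntrk3, the receptor of neurotrophin 3, had 59.1 and 55.1 CPM in mutants, against 25.3 and 24.6 CPM in controls (log2 fold change 1.19 ± 0.10 SE, adjusted p = 5.72e-06). Its ligand Ntf3 had 4.78 and 3.804 CPM in mutants, against 4.68 and 3.75 CPM in controls and was not called (adjusted p = 0.96). Of the 17 genes for neurotrophins, the GDNF family and their receptors, 5 were called higher and 1 lower. Those called higher numbered 3 with Xist as a covariate. Of 20 tested marker genes of neurons, 1 was called higher (Ret, which is on both lists) and 2 lower, where 11.8% of all tested genes were called. The neuron markers had a summed level of 401 and 440.2 CPM in mutants, against 566 and 458 CPM in controls. The 2 lower neuron markers became 0 or 1 when any 1 library was left out, and 1 with Xist as a covariate.

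Of 43 axon guidance genes, 6 rose and 10 fell. Genes called higher numbered 3 without control 1 and 2 without control 2. Ntn1, netrin 1, had 104 and 119 CPM in mutants, against 26.5 and 28.96 CPM in controls (log2 fold change 2.01 ± 0.10 SE, adjusted p = 1.46e-07), and Sema3e, a semaphorin that also guides vessels, had 54.9 and 58.6 CPM in mutants, against 22.8 and 25.9 CPM in controls (log2 fold change 1.22 ± 0.09 SE, adjusted p = 2.27e-06). Of 6 tested receptors of netrin, Unc5c and Unc5b fell and 4 were not called: Unc5c had 166 and 164 CPM in mutants, against 329 and 339.8 CPM in controls (log2 fold change -1.02 ± 0.07 SE, adjusted p = 7.41e-07) and Unc5b had 40.7 and 45.3 CPM in mutants, against 73.5 and 68.4 CPM in controls (log2 fold change -0.72 ± 0.10 SE, adjusted p = 0.00052). Robo2, a receptor of Slit proteins, had 42.7 and 38.9 CPM in mutants, against 73.3 and 78.3 CPM in controls (log2 fold change -0.89 ± 0.08 SE, adjusted p = 7.1e-06). Epha3, an ephrin receptor, and Sema6d, a membrane semaphorin, were lower by the same log2 fold change, -0.90 ± 0.08 and -0.90 ± 0.07 SE. None of the called receptors named here overlapped between groups, as was so for 54.5% of all tested genes. The ligand Slit2 had 116 and 124 CPM in mutants, against 121 and 125 CPM in controls and was not called (adjusted p = 0.883).

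Peptide signals to vessels and muscle also differed. Edn3, endothelin 3, which guides neural crest cells, had 40.7 and 34 CPM in mutants, against 12.3 and 13.8 CPM in controls (log2 fold change 1.52 ± 0.15 SE, adjusted p = 3.93e-05). Nppc, C-type natriuretic peptide, had 5.96 and 4.57 CPM in mutants, against 0.749 and 0.562 CPM in controls (log2 fold change 2.99 ± 0.42 SE, adjusted p = 0.000356). Nppa, the atrial peptide of heart muscle, was lower with 0.591 and 0.176 CPM in mutants, against 4.87 and 5.998 CPM in controls (log2 fold change -3.76 ± 0.45 SE, adjusted p = 1e-04), and it belongs to the cardiac list whose sum is given above. Rxfp1, the relaxin receptor, had 0.591 and 0.702 CPM in mutants, against 4.03 and 3.19 CPM in controls (log2 fold change -2.47 ± 0.35 SE, adjusted p = 0.000838). Of 22 genes of this list 3 were called higher and 5 lower. The number called lower was 3 without control 1 and 3 with Xist as a covariate.

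Hedgehog signalling runs from the epithelium to the mesenchyme. Ptch1, receptor and target of Shh, had 182 and 189 CPM in mutants, against 129 and 137 CPM in controls (log2 fold change 0.48 ± 0.08 SE, adjusted p = 0.00183). The co-receptors Boc and Cdon were lower, with 192 and 164 CPM in mutants, against 262 and 268 CPM in controls for Boc (log2 fold change -0.58 ± 0.07 SE, adjusted p = 0.000255) and a log2 fold change of -0.42 ± 0.07 SE for Cdon (adjusted p = 0.00171). Gli1, a further target, had 124 and 114 CPM in mutants, against 96.3 and 122 CPM in controls and overlapped between groups; it passed the threshold without control 2 (adjusted p = 0.0489). Of 14 tested genes 1 was called higher and 3 lower.

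For FGF signalling 4 of 17 ligands and receptors were called higher and 3 lower. Those called higher numbered 1 without mutant 1, 1 without control 2 and 1 with Xist as a covariate, and genes called lower numbered 1 without mutant 2, 0 without control 1 and 0 without control 2. Fgfr2, the epithelial receptor of Fgf10, had 274 and 256 CPM in mutants, against 180.3 and 196 CPM in controls (log2 fold change 0.49 ± 0.06 SE, adjusted p = 0.000102). Fgf10 itself had 16.4 and 18.4 CPM in mutants, against 17.1 and 14.7 CPM in controls and was not called (adjusted p = 0.625). In the feedback list 3 inhibitors of the pathway rose: Spry1 had 44.1 and 41.02 CPM in mutants, against 21.8 and 24.1 CPM in controls (log2 fold change 0.89 ± 0.09 SE, adjusted p = 3.78e-05), Spry2 had 53.99 and 47.3 CPM in mutants, against 32.95 and 30.8 CPM in controls (log2 fold change 0.67 ± 0.09 SE, adjusted p = 0.000275) and Spry4 had 26.9 and 20.5 CPM in mutants, against 10.8 and 8.903 CPM in controls (log2 fold change 1.27 ± 0.17 SE, adjusted p = 0.000294). The other 11 of 14 tested feedback genes were not called, among them Dusp6 at 43.1 and 40.6 CPM in mutants, against 39.4 and 43.2 CPM in controls. The number called higher was 5 without mutant 2.

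Retinoic acid, made by aldehyde dehydrogenases, patterns the foregut. Aldh1a1, an enzyme that makes retinoic acid, had 81.3 and 69.8 CPM in mutants, against 11.1 and 13.1 CPM in controls (log2 fold change 2.64 ± 0.13 SE, adjusted p = 7.28e-08). Aldh1a2, the enzyme of the mesenchyme, had 45.3 and 64.5 CPM in mutants, against 64.7 and 60.4 CPM in controls, with overlapping groups; it passed the threshold, as lower, without mutant 2 (adjusted p = 0.00157). In all, 4 of 18 tested genes were called higher and 3 lower. Those called higher numbered 2 without control 1, and genes called lower numbered 1 without control 2. Of 19 Notch pathway genes 2 were called higher and 3 lower (26.3%, against 11.8% of all tested genes). The number called higher was 1 without mutant 2, 1 without control 1 and 1 with Xist as a covariate, and those called lower numbered 1 without mutant 1, 0 without control 2 and 0 with Xist as a covariate. Jag1, a ligand, had 54.5 and 60.7 CPM in mutants, against 62.9 and 73.7 CPM in controls (adjusted p = 0.352).

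Several growth genes fell, and edgeR called no gene of the cell cycle list. Igf2, the imprinted fetal growth factor, had 4356 and 4025 CPM in mutants, against 5851 and 6098 CPM in controls (log2 fold change -0.51 ± 0.05 SE, adjusted p = 3.73e-05). Hmga2, a chromatin protein of fetal growth, had 193 and 200.3 CPM in mutants, against 302 and 365 CPM in controls (log2 fold change -0.76 ± 0.08 SE, adjusted p = 3.23e-05), and Igf2r, the receptor that clears IGF2, had 551 and 499 CPM in mutants, against 674 and 649.8 CPM in controls (log2 fold change -0.34 ± 0.06 SE, adjusted p = 0.00284). Of 22 imprinted and fetal growth genes 8 were called lower and 3 higher. Genes called higher numbered 1 without control 1, and the number called lower was 3 without control 2. Of 30 genes of DNA replication and mitosis 0 were called by edgeR, 6 had an unadjusted p under 0.05, and DESeq2 called 0. Their log2 fold changes lay between -0.16 and 0.134, and Mki67, a marker of dividing cells, had 649 and 608 CPM in mutants, against 673 and 668 CPM in controls.

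Endothelial genes were lower in mutants, with 13 of 26 called lower, 0 higher and a median log2 fold change of -0.50. Their summed level was 727 and 802 CPM in mutants, against 1032 and 1134 CPM in controls. Tek, the angiopoietin receptor, had 22.8 and 28.03 CPM in mutants, against 45.5 and 41.9 CPM in controls (log2 fold change -0.78 ± 0.13 SE, adjusted p = 0.0032). Its partner Tie1 had 43.2 and 50.8 CPM in mutants, against 71.3 and 82.9 CPM in controls (log2 fold change -0.72 ± 0.11 SE, adjusted p = 0.00192). Gja5, a connexin of arteries, had 19.3 and 15.8 CPM in mutants, against 36.04 and 31.96 CPM in controls (log2 fold change -0.95 ± 0.14 SE, adjusted p = 0.00115). Pecam1, an adhesion protein of endothelium, had 50.1 and 57.2 CPM in mutants, against 67.4 and 68.6 CPM in controls and was not called (adjusted p = 0.0841), but passed without mutant 2 (adjusted p = 0.0427). Without mutant 1, without control 2 and with Xist as a covariate, 6 endothelial genes were called lower in each case.

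Marker lists of other tissues held few called genes in number. Over all tested genes 11.8% were called, 5.97% higher and 5.81% lower. Erythroid genes summed to 1293 and 1330.5 CPM in mutants, against 2634 and 1910.3 CPM in controls, with 3 of 15 called lower, and macrophage and immune genes to 136 and 175 CPM in mutants, against 208 and 188 CPM in controls, with 2 of 20 called lower. Leaving out 1 library gave 0 or 1 called erythroid genes and between 0 (without mutant 1) and 4 (without mutant 2) called macrophage and immune genes; with Xist as a covariate both numbers were 0. Of 9 mesothelial genes edgeR called 0, while 4 had an unadjusted p under 0.05 and DESeq2 called 2 lower. Of 12 glial genes 3 were called higher, among them Mbp, myelin basic protein, with 54.2 and 50.7 CPM in mutants, against 34.4 and 32.3 CPM in controls (log2 fold change 0.65 ± 0.10 SE, adjusted p = 0.000532). Of 6 tested genes of thyroid, parathyroid and thymus, 3 were called lower and 0 higher. All 6 were below 0, from -4.61 to -0.58 on the log2 scale. The list summed to 6.1 and 9.1 CPM in mutants, against 22.4 and 22.3 CPM in controls. Whether the libraries differed in attached thyroid tissue was not tested. Tg, thyroglobulin of the thyroid, which lies beside the trachea, had 0.752 and 0.351 CPM in mutants, against 2.53 and 2.44 CPM in controls (log2 fold change -2.13 ± 0.42 SE, adjusted p = 0.00432). Duox2, an oxidase of thyroid and gut, had 0.215 and 0.293 CPM in mutants, against 1.404 and 1.97 CPM in controls (log2 fold change -2.69 ± 0.45 SE, adjusted p = 0.00137).

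**Figure D5:**
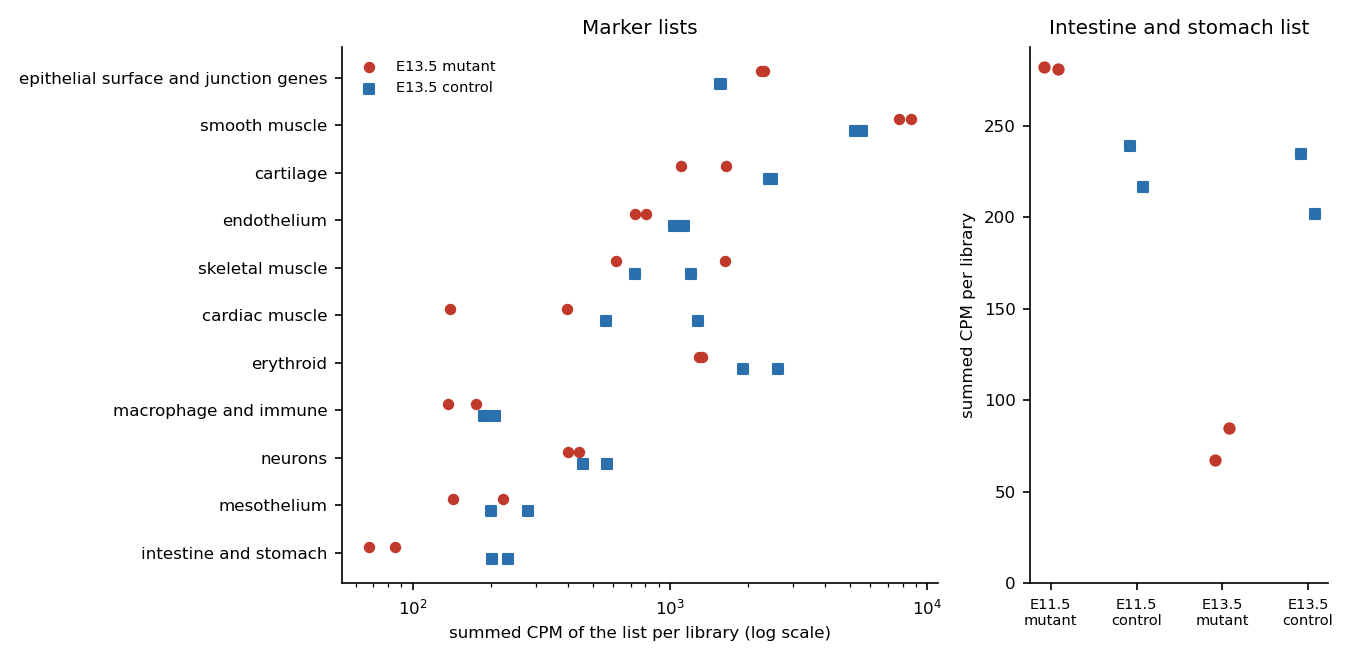
Left, summed CPM (log scale) of 11 marker lists in each E13.5 library, mutants as red circles above controls as blue squares; right, summed CPM of the intestine and stomach list in all 8 libraries, mutants left of controls at each stage. The E13.5 mutants, at 67.2 and 84.9 CPM, have the lowest intestinal sums of the 8 libraries. In the sums, the groups overlap for skeletal muscle and mesothelium.

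Among the 43 genes with 0 counts in both mutants were several defensin genes of the intestine, whose symbols begin with Defa. Reg3b, a secreted antimicrobial lectin of gut epithelium, and Dmbt1, a mucin-like protein of mucosa, were others. The source of these transcripts was not tested, so the bounds below are not shown to be an effect of genotype in tracheal cells. Reg3b had 18.7 and 16.0 CPM in controls and was at least 207-fold lower in mutants, taking 3 counts over the mutant group as the floor. Dmbt1 had 16.9 and 12.3 CPM in controls and was at least 174-fold lower in mutants. Cdx1, a homeobox factor of the intestine, had 1.03 and 1.78 CPM in controls and 0 counts in mutants. Such bounds cover counting error only. Pigr, the receptor that moves antibodies across epithelia, was detected in all 4 libraries, with 0.215 and 0.234 CPM in mutants, against 18.4 and 16.96 CPM in controls (log2 fold change -6.24 ± 0.23 SE, adjusted p = 1.15e-08). Vil1, villin of the brush border, had 0.161 and 0.410 CPM in mutants, against 3.65 and 3.65 CPM in controls (log2 fold change -3.66 ± 0.38 SE, adjusted p = 3.68e-05). Of 34 tested genes of the intestine and stomach, 26 were called lower and 0 higher.

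Outside the lists, some of the largest called increases belonged to genes with no set role in the trachea. Trim9, a ubiquitin ligase of neurons, had 10.8 and 10.5 CPM in mutants, against 2.81 and 1.97 CPM in controls (log2 fold change 2.15 ± 0.23 SE, adjusted p = 3.68e-05). Itih2, a serum protein that binds hyaluronan, had 6.55 and 4.86 CPM in mutants, against 0.749 and 1.03 CPM in controls (log2 fold change 2.67 ± 0.31 SE, adjusted p = 7.83e-05). The RNA 4933436C20Rik had 10.5 and 9.66 CPM in mutants, against 2.06 and 2.62 CPM in controls (log2 fold change 2.10 ± 0.21 SE, adjusted p = 2.08e-05). The mutants of each were close to each other and well above the controls.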

How the data were processed

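Total RNA of dissected tracheae was isolated with Trizol and made into libraries with the Nextera XT kit, per the labels' protocols; this kit does not mark strand, so reads of overlapping or antisense genes cannot be told apart. For each stage the authors deposited 1 table, with columns of raw count and read density per library. The raw count columns as deposited hold estimated counts (78.4% to 82.6% of the E13.5 values above 0 were not whole), which were rounded, where the design had assumed whole counts. The deposited read density is an RPKM and served only to compare levels between Wnt ligands. Per the submitters' processing notes the build is mm9 and the software includes Cufflinks 2.0.2, DESeq, TopHat2 2.0.8 and Bowtie2 2.1.0; their roles and the gene annotation are not given in the sources used here. Entries that name no gene (6 at E13.5) were dropped (at most 0.0253% of the counts of any library), and entries of 1 symbol were summed.

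Genotypes were compared with the quasi-likelihood test of edgeR 4.0.16 under R 4.3.3 (TMM, filterByExpr, robust quasi-likelihood fit, 1 mean per stage and genotype over all 8 libraries, 4 residual degrees of freedom, common biological coefficient of variation 7.79%). The procedure was tested on simulated counts. Alternatives used DESeq2 1.42.0, limma 3.58.1, other scalings and filters, and left out each library. Promoters came from the RefSeq table of GRCm38.p6. Reads carry no molecular identifiers, so floors cover counting error only.

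Genes were named by a rule: the 15 largest called increases and 15 largest called decreases with at least 5 CPM in the higher group and no overlap, fixed anchor genes of 49 lists, the 4 called members of each list with the smallest p, and called genes with 0 counts in 1 group and at least 1 CPM in the other. Not every gene that the rule names is printed. Bambi, Bmper, Cer1, Des, Dkk1, Epha3, Eya1, Fhl1, Foxf1a, Foxp1, Fst, Gata5, Irx1, Irx2, Ldb3, Lmod1, Myl9, Nkx6-1, Nr2f1, Robo2, Spint1, Srf, Synpo2, Tagln, Tnfrsf19, Wnt5a and Wnt5b were chosen after their values were seen. The comparison and the lists were chosen with earlier results of these data known, so no list is independent evidence of its direction.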

Additional observations from a re-analysis of the deposited data

Results flagged for a closer look

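Of the 167 genes named in the text, 78 had a genotype effect at E13.5 that differed from the effect at E11.5 in edgeR's test of the interaction, with Benjamini-Hochberg adjusted p under 0.05 over all 14901 genes. The same test called 497 of the 14901 genes. Many named genes were chosen for their E13.5 effect, which is part of the tested difference. Their higher share is therefore no result about these genes as a set. The values below are the E13.5 log2 fold change minus the E11.5 log2 fold change, so a positive value means that the mutants stood higher relative to controls at E13.5 than at E11.5. In Wnt genes the difference was -0.67 for Wls, 1.13 for Wnt2, -0.49 for Wnt5a, 0.79 for Wnt7b, -0.50 for Fzd1, 0.66 for Kremen1, -0.35 for Gpc3, 0.67 for Rnf43 and 2.00 for Tnfrsf19. It was also -0.76 for Myc and -0.64 for Ccnd1. In mesenchymal factors and Hox genes it was -0.81 for Tbx2, -1.93 for Msx2, -1.22 for Snai1, -2.05 for Gata5, -0.99 for Nr2f1, 2.44 for Foxf2, 1.85 for Nkx6-1, 1.09 for Eya1 and 0.52 for Foxp1. It was also -1.25 for Hoxa5 and -0.68 for Hoxa4. In genes of smooth muscle it was 2.27 for Myocd, 2.86 for Myh11, 0.43 for Srf, 1.23 for Synpo2, 1.39 for Mrvi1 and 1.51 for Lmod1. In channel genes it was 0.74 for Cacna1c, 1.66 for Kcnd3 and 1.17 for Ano1. In matrix and BMP genes it was 1.28 for Htra3, 0.49 for Timp3, 0.74 for Frem2, -1.21 for Gdf5, 2.14 for Fst, 1.12 for Chrdl1, 0.80 for Nbl1, 1.83 for Smoc2 and 0.57 for Rgmb. It was also -0.62 for Id1 and -0.70 for Id3. In epithelial genes it was 0.48 for Epcam, 0.96 for Spint1, 0.68 for Esrp2, 0.81 for Foxa1, 0.70 for Grhl2, 1.98 for Irx1, 1.66 for Irx2, 1.57 for Irx3 and 1.33 for Irx5. In genes of nerves, vessels, growth and other signals it was -0.85 for Gja5, -0.68 for Sema6d, -0.63 for Robo2, -0.60 for Unc5c, -0.51 for Hmga2, -0.37 for Igf2, 0.42 for Fgfr2, 0.45 for Ptch1 and 0.64 for Spry1. It was also 0.68 for Ntrk3, 0.77 for Sema3e, 1.09 for Gfra1, 1.17 for Edn3, 1.20 for Ntn1, 1.58 for 4933436C20Rik, 2.16 for Itih2, 2.17 for Trim9 and 2.71 for Aldh1a1. It was also 3.33 for Gdnf. In genes of gut and thyroid it was -5.64 for Agr2, -11.47 for Reg3b, -10.81 for Dmbt1, -6.48 for Pigr, -7.12 for Cdx1, -4.13 for Vil1, -2.51 for Tg and -2.53 for Duox2. For Reg3b, Dmbt1 and Cdx1 the values are fitted to groups with 0 counts in both E13.5 mutants and give no size. Groups of 2 libraries were too small for a test of single outlying samples, and the causes of these stage differences were not tested. The E13.5 mutants also differed from all other libraries in depth and in gut transcripts, as given above.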

How the results depend on the processing

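Against 1755 genes called in all, 889 higher and 866 lower, fitting log2 CPM of Xist as a covariate gave 1032, 553 and 479, and DESeq2 called 588 higher. Leaving out 1 library gave 934 to 1641 genes in all, 460 to 861 higher, 474 to 780 lower and 368 to 617 changed at least 2-fold, against 543; the lowest values came without control 1. The other settings (RLE and upper-quartile scaling, no filter and a stricter one, limma-voom, the 4 E13.5 libraries alone, a fit that is not robust, mutant counts thinned to control depth) stayed within 1.5 times of each count. Adding the replicate number within stage as a replicate block gave 1827 genes. Over all genes, libraries with the same number did not deviate together (correlation 0.045 at E11.5 and 0.044 at E13.5). This cannot exclude a shared effect on some genes. At E13.5 replicate 1 had the higher skeletal muscle sum in mutants (1627 and 617 CPM) and in controls (1207 and 727 CPM). The same held for cardiac muscle (397 and 139 CPM, and 1279 and 563 CPM), but not for erythroid genes. Whether such libraries share a batch was not tested. Under the replicate block the calls on Acta2 and Wnt5b were lost, and Eln, Wif1, Pecam1 and Ldb3 were called. The count without gut genes, 1694 in all, was chosen after seeing the data. Of 139 named genes that were called, 124 kept the call in each of the 15 settings that tested them (the stricter filter left out Cdx1, Duox2 and Tg) and 0 changed direction in any; most of the 15 others lost it without control 1 (12 genes) or without control 2 (11 genes). Every scaling moved the median of all genes by less than 0.1 on the log2 scale. With 2 libraries a group and 4 residual degrees of freedom, differences that vary between replicates, such as those of cartilage matrix and basal keratins, cannot be settled at this number of samples.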
